A study of Bubalus bubalis with 8 samples.

Results

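Gene expression in buffalo mammary epithelial cells (MECs, the cells that line the milk-secreting gland) was compared between 8 h of recovery from heat and the later recovery times of 12 h and 24 h. These were 3 of the 8 arrays of the series. They were chosen because HS_8h, HS_12h, HS_24h and the unstressed control (CTR) were hybridised on 1 slide of 4 arrays, so that the comparison needed no array of the other slide. Each time point had 1 array, so the differences have no replicate check and carry no p-value. The study followed MECs from 30 min to 24 h after heat to find which genes answer to it. The cells were a primary culture from the mammary gland of 1 buffalo, used at passage 10. The plate for HS_8h, HS_12h and HS_24h was held at 42 °C for 1 h, returned to 37 °C with 5% CO2, and its cells were taken off with trypsin after 8, 12 or 24 h, whereas CTR cells stayed at 37 °C. CTR did not enter the comparison. Its level is given beside the results as the unstressed background, and its collection time is not stated in the labels. RNA was read with a 1-colour array of 60-base probes designed on cattle sequence, so a probe may bind buffalo RNA less well than cattle RNA.

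Heat unfolds proteins, and cells answer through heat shock factor HSF1, which switches on the genes of molecular chaperones. HSP70 proteins hold unfolded chains with the help of DNAJ proteins, which deliver the client, and of nucleotide exchange factors such as BAG3 and HSPH1, which release it. HSP90 finishes the folding of many signalling proteins, small heat shock proteins keep damaged proteins from clumping, and a separate set led by HSPA5 works in the endoplasmic reticulum (ER), where the unfolded protein response controls it. In the mammary gland this machinery matters because milk secretion loads the ER heavily and warm weather lowers milk yield. When proteins are folded again, free HSP70 holds HSF1 back and the response is shut off.

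The difference reported throughout is the level on HS_8h minus the mean of the levels on HS_12h and HS_24h. A level is the log2 signal of a probe minus the 75th percentile of its own array, so that 0 means a signal at that percentile, and a difference of 1 means 2-fold. For the chaperone families, a probe is shown for each of 7 genes that met the rule below, and with them the chemokine probe with the opposite pattern, by their first 30 of 60 bases as designed on the cattle genome (build HGSC Btau_3.1). The strand is as the file lists it.
BAG3 probe A_73_104415 (chr26:40303394-40303453, plus): ataaaatgtgtaaggagccatagagatatc
DNAJB1 probe A_73_110248 (chr7:9502456-9502515, minus): actgccaacacaagaccaaagtgtgtgact
HSPA1A probe A_73_104629 (chr23:27311987-27312046, minus): gccaatggcatcctgaacgtcacggccacg
HSPA6 probe A_73_P092016 (chr3:8748912-8748971, minus): accagttagcagacaaagaggaatatgagc
HSPA8 probe A_73_P341276 (chr15:32348180-32348239, minus): gtgcacatggaaaaacattgcactttacaa
HSPA5 probe A_73_102684 (chr11:99543141-99543200, minus): atttaacaattgggtcatgtgtatctggtg
HSPB8 probe A_73_113698 (chr17:59096092-59096151, minus): ctagtggtgttgtgtatatgggtgggacgt
CCL2 probe A_73_112988 (chr19:15665370-15665429, minus): tccctgggatggtggaagtgtcctcgcaag
In the HSP70 family, 2 HSPA1A probes were not independent, because A_73_P268106 from its base 1 and A_73_P275126 from its base 7 shared the 29-base run printed here in capitals.
HSPA1A shared run: TTCGTGGAGGAGTTCAAGAGGAAGCACAA

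A probe was counted as detected when the scanner software called it well above background on HS_8h, or on both HS_12h and HS_24h. Of 43653 probes, 12320 were detected, and 9864 of these were well above background on all 3 arrays. A probe below that call on an array is termed dim there, and its fold change is given as a bound ("at least"), set from the lowest level well above background on that array. The signal at the 75th percentile was 303 units on HS_8h, 426 on HS_12h and 339 on HS_24h. The share of probes well above background was 27.8%, 33.4% and 23.2% in the same order, so HS_24h left the most genes dim. Spots of 1 probe on 1 array differed with an SD of 0.23 to 0.34 (log2, 16 probes), which gives an error of 0.31 for the difference of a probe with 1 spot. Different probes of 1 gene differed with an SD of 0.33 over 1967 genes. These errors are technical and hold nothing of the spread between cultures.

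The epithelial label was checked against marker genes. KRT5, KRT7, KRT8, KRT14, KRT19 and EPCAM were bright on all 3 arrays with every probe, CDH1 was with 1 of its 3 probes, and 12 to 14 of 17 epithelial markers had a probe well above background. KRT18, a keratin of luminal epithelium, was dim with all 3 of its probes, as were ELF5 and TP63. The mesenchymal filament gene VIM was bright with all 5 of its probes, and 5 or 6 of 12 fibroblast markers were above background. Of the milk protein genes, CSN2 was above background with only its probes A_73_116854 and A_73_P232452, and the other 6 genes on the array were dim. No endothelial marker of 9 was above background, and 8 to 10 of 22 leukocyte markers were, with PTPRC above background on 1 of its 4 probes. The summed signal of the epithelial markers, as a multiple of the array's 75th percentile, was 659, 627 and 700 on HS_8h, HS_12h and HS_24h. That of the fibroblast markers was 373, 283 and 349, that of the leukocyte markers 69.6, 55.9 and 69.4, and that of CSN2 and the dim milk genes 5.42, 5.09 and 6.84. HS_8h lay between the other 2 arrays for the epithelial and milk lists and above both for the fibroblast and leukocyte lists, and the part of cell composition in the differences was not tested. In such bulk RNA, fewer cells of a type and less RNA per cell cannot be told apart.

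A probe was called when its difference was at least 3-fold and it lay at least 2-fold beyond each of HS_12h and HS_24h. By this rule 114 probes were higher at 8 h, 0.925% of those detected, and 17 were lower, 0.138%. A probe bright on HS_8h alone was detected, whereas one dim there had to be bright on both later arrays. Detection thus let higher probes in more easily than lower ones, and with no filter 185 were higher and 148 lower. When a probe had to be above background on each of the 3 arrays, 22 were higher (0.223%) and 2 lower (0.0203%). The 22 probes stood for 12 gene symbols and 1 locus without a symbol. Chaperone genes filled most of this list: 18 of the 22 probes, or 81.8%, belonged to 9 genes of 7 chaperone lists, which hold 138 of the 9864 probes, or 1.40%. The lists were chosen with earlier results of these data known, so this share is a description. The remaining 92 of the 114 higher probes were dim on HS_12h and HS_24h (57 probes) or on HS_24h alone (35 probes). All 92 passed detection only through HS_8h, where they were high. Only 13 of those 92 still met the rule with the dim array raised to its bound, and 7 of these 13 were chaperone probes of HSPA1A, HSPA5, HSPA6, HSPB8 and DNAJB1. Counted as genes, with the median over a gene's detected probes and a change of 2-fold from each later array, 79 of 6573 genes (1.20%) were higher and 13 (0.198%) lower. At the edge of the rule, MANF probe A_73_P302056 was just inside it at 3.03-fold. HSP90B1 was just short of 3-fold at 2.93-fold, and it also lay less than 2-fold above HS_12h. Measured against HS_12h alone, 78 probes were higher and 3 lower. Measured against HS_24h alone, 457 were higher and 61 lower.

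**Figure D1:**
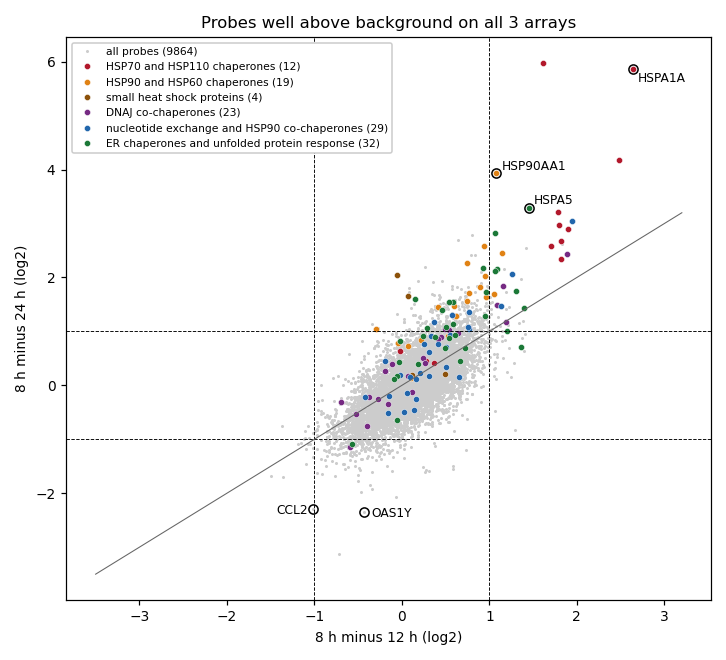
Each point is a probe well above background on all 3 arrays. The horizontal axis is its HS_8h level minus its HS_12h level and the vertical axis its HS_8h level minus its HS_24h level (both log2, so the axes share the HS_8h array). Dashed lines mark 2-fold and the grey diagonal marks equal levels at 12 h and 24 h. The probes beyond 2-fold on both axes at the upper right are mostly coloured chaperone probes, and the highest are HSPA1A.

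The HSP70 family showed the largest differences. HSPA1A, the main heat-inducible cytosolic HSP70, gave 7.71, 5.06 and 1.84 on HS_8h, HS_12h and HS_24h with its brightest probe, against 2.67 on CTR. This probe was saturated on HS_8h, so the difference of 4.26, or 19.2-fold, is a lower bound: at least 19.2-fold. The gene was thus highest at 8 h, between at 12 h, and below the unstressed level at 24 h. Of its other 4 probes, 1 read 7.02, 5.41 and 1.03, 13.9-fold, and the 3 that were dim on HS_24h gave bounds of at least 11.9-fold, at least 15.6-fold and at least 15.9-fold. HSPA6, a second strictly inducible HSP70 that resting cells hardly express, read 3.64 on HS_8h and 0.33 on HS_12h, and was dim on HS_24h and on CTR. That makes at least 10.3-fold. HSPA8, the constitutive cytosolic HSP70, moved with all 6 of its probes, whose differences ran from 2.09 to 3.32. Its probe A_73_P403651 read 5.89, 4.09 and 2.92, against 3.79 on CTR, a difference of 2.39 or 5.24-fold. Its probe A_73_P341276, shown above, read 6.42, 3.95 and 2.25, against 5.59 on CTR, a difference of 3.32 or 9.99-fold. HSPH1, the HSP110 protein that works as an exchange factor for HSP70, read 4.42, 2.52 and 1.51, against 1.54 on CTR, 5.28-fold. In every one of these genes the 3 arrays kept the order 8 h, 12 h, 24 h.

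The rest of the HSP70 list differed less. HSPA9, the mitochondrial HSP70, read 3.77, 3.78 and 3.12, a difference of 0.31, which equals the error of a single spot. HSPA14, which sits on ribosomes, had a difference of 0.40. HSPA4, another exchange factor, had a difference of 0.37 with its brighter probe, and its second was dim on HS_24h, at least 2.77-fold. Both HSPA2 probes were dim on HS_24h, with bounds of at least 1.31-fold and at least 1.52-fold. Of the 14 listed genes, 13 were on the array and 8 were detected. All 8 had a difference above 0, beside 4122 of all 6573 genes. Their median was 1.85, against 0.12 over all genes, and 1.62 with dim values raised to their bound, against 0.06. Raised in this way, HSPA1A, HSPA6, HSPA8 and HSPH1 were 2-fold beyond each later array as genes and HSPA2 was not, beside 24 of all 6573 genes higher (0.365%) and 6 lower (0.0913%). HSPA2 and HSPA6 were detected through HS_8h, so their detection was not independent of being high there.

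**Figure D2:**
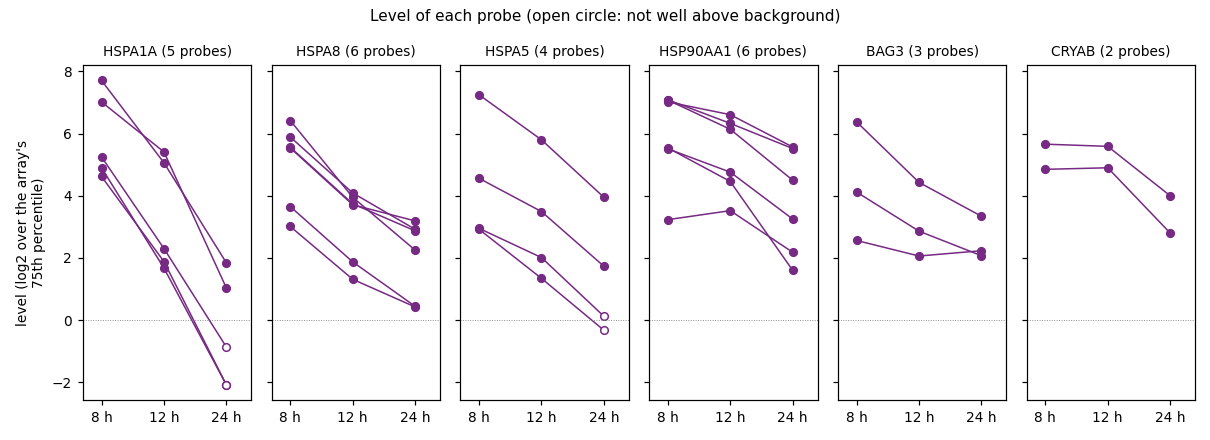
Level of every detected probe of 6 genes on the 3 arrays (vertical axis, log2 over the array's 75th percentile, 1 line per probe; open circles are dim values). All 5 HSPA1A, 6 HSPA8 and 4 HSPA5 probes fall at each step, whereas the CRYAB probes hold from 8 h to 12 h and fall by 24 h.

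HSP90 and the mitochondrial HSP60 pair were higher at 8 h by smaller factors. HSP90AA1, the inducible cytosolic HSP90, had 6 probes well above background on all 3 arrays, with differences from 0.38 to 2.51. The highest of them read 5.54, 4.46 and 1.60, against 3.87 on CTR, and met the rule at 5.70-fold. The probe A_73_P311796 read 7.08, 6.14 and 4.50 with a 3.39-fold difference but lay less than 2-fold above HS_12h. The probes of this gene thus disagreed beyond the spread of 0.33 seen between probes of 1 gene. HSP90AB1, the constitutive form, had differences of 0.40 to 1.80 over 5 probes, and 1 of them met the rule at 3.48-fold. HSPD1 (HSP60) read 5.09, 4.14 and 3.06 with its brightest probe, 2.81-fold, and its cofactor HSPE1 had differences of 0.73 and 1.04. TRAP1, the mitochondrial HSP90, differed by 0.13. All 5 genes of the list were detected and above 0 (beside 4122 of all 6573 genes above 0), with a median of 0.95. None was 2-fold beyond both later arrays as a gene. The median was 0.62 against HS_12h alone and 1.28 against HS_24h alone, and at the level of genes 47.6% of the log2 fall from 8 h to 24 h had taken place by 12 h (4 genes at least 2-fold above HS_24h, from 39.3% to 56.5%).

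The small heat shock proteins did not share a single course. HSPB8, the partner of BAG3 in clearing damaged proteins, read 4.63 and 2.05 on HS_8h and HS_12h with its brightest probe and was dim on HS_24h and CTR, at least 11.2-fold. Its other probes gave bounds of at least 2.60-fold and at least 1.75-fold, the former dim on both HS_12h and HS_24h. CRYAB, which binds unfolded proteins and is known for its part in lens and muscle, was dim on CTR and read 5.66, 5.59 and 4.00. Its second probe read 4.85, 4.90 and 2.80. CRYAB therefore stood at the same level at 8 h and 12 h within the error of a spot, and only the 24 h array was lower. HSPB1, the most abundant small heat shock protein in many cells, read 7.74 (saturated), 7.24 and 7.52, and HSPB6 read 1.38, 1.26 and 1.19. Of 10 listed genes 9 were on the array and 4 were detected. Their median was 0.64, 0.31 against HS_12h alone and 1.04 against HS_24h alone.

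Among the co-chaperones, the partners of the inducible HSP70s stood apart from the rest. BAG3, which releases clients from HSP70 and hands them to autophagy, read 6.38, 4.43 and 3.34, against 3.75 on CTR, 5.66-fold. A second probe gave 3.16-fold, and another read 2.56, 2.06 and 2.23, a difference of 0.42. DNAJB1, the inducible HSP40, read 5.80, 3.91 and 3.36, against 4.02 on CTR, 4.47-fold, and its second probe was dim on HS_24h with at least 3.86-fold. Its 12 h and 24 h levels were closer to each other than those of HSPA1A. DNAJA1, another cytosolic HSP40, had differences of 0.77 to 1.5 over 5 probes, and BAG2 read 3.60, 2.47 and 2.13, 2.46-fold. DNAJA4 was dim on HS_24h with both probes, with bounds of at least 2.41-fold and at least 1.36-fold. In the other direction, DNAJA3, a mitochondrial DNAJ protein, had differences of -0.87 to -0.27 over 3 probes and DNAJC8, a splicing-associated one, -0.58. Of 18 listed DNAJ genes, 14 were detected with a median of 0.51, or 0.20 with dim values raised to their bound. DNAJB1 and DNAJA1 were 2-fold beyond each later array as genes under that bound, whereas DNAJA4, detected through HS_8h, was not.

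The exchange factors and HSP90 co-chaperones had a median of 0.40 over 16 of 18 genes, and BAG3 was 2-fold beyond each later array as the median over its probes. STIP1, which bridges HSP70 and HSP90, had differences of 0.13 to 0.94 over its 4 probes well above background on all 3 arrays. AHSA1, the activator of the HSP90 ATPase, read 5.90, 5.13 and 4.54, 2.10-fold, with a second probe dim on HS_24h. CDC37, SGTA and BAG4 lay within 0.24 of 0 with every detected probe. STUB1, a ubiquitin ligase that marks chaperone clients for destruction, had differences of -0.32 and -0.34. The TRiC chaperonin, a folding chamber for actin and tubulin, had all 8 subunits detected with a median of 0.42, the highest being CCT2 at 0.82.

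**Figure D3:**
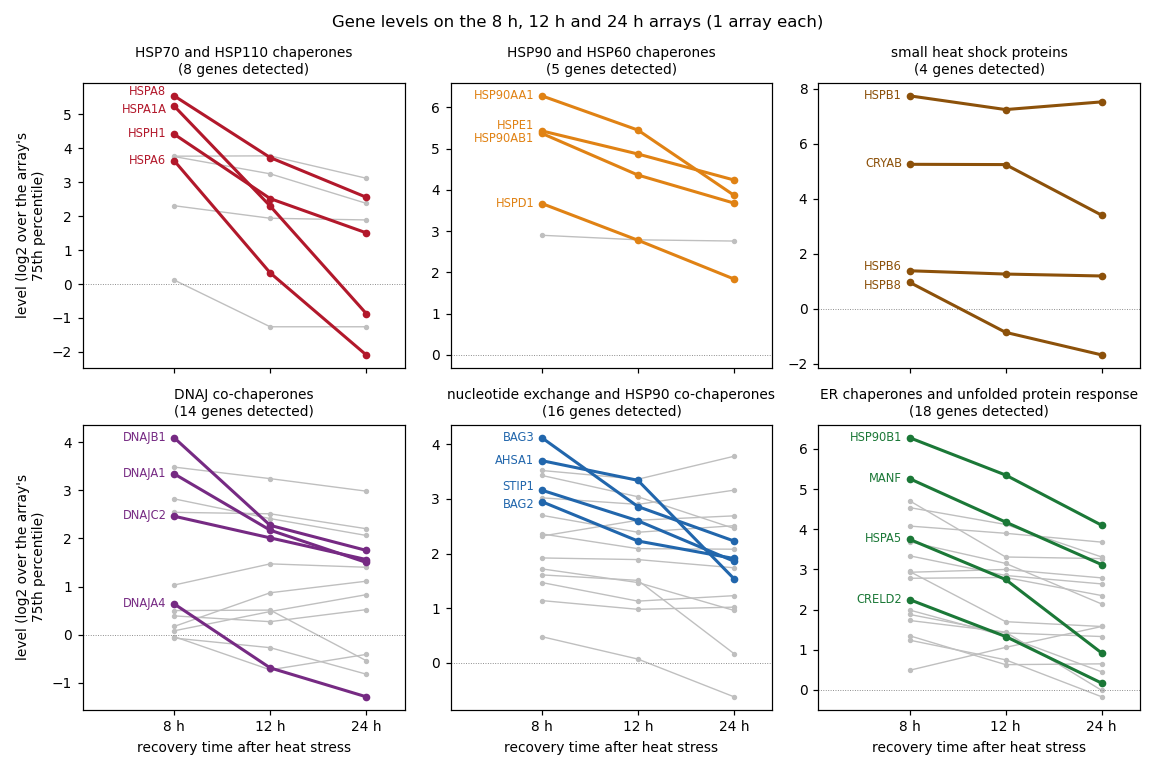
Gene levels (median over detected probes, log2 over the array's 75th percentile) on HS_8h, HS_12h and HS_24h for 6 chaperone lists, 1 array per time. The 4 genes with the largest difference in each list are coloured and named and the others are grey; low levels on HS_24h include dim values. HSPA1A, HSPA6, HSPB8 and BAG3 fall steeply, whereas HSPB1, saturated on HS_8h, shows only a lower bound there.

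Most ER chaperones were higher at 8 h, and HSPA5, MANF and DNAJB11 were 2-fold beyond each later array as genes, also with dim values raised to their bound. HSPA5 (BiP), the ER HSP70 that senses unfolded proteins, read 7.25, 5.80 and 3.95, against 5.36 on CTR, 5.17-fold. A second probe gave 3.86-fold, and the other 2, dim on HS_24h, at least 3.56-fold and at least 4.38-fold. MANF, a secreted ER stress protein, read 6.40, 5.31 and 4.24, against 5.68 on CTR, 3.1-fold, and its second probe gave 3.03-fold. DNAJB11, the ER partner of HSPA5, read 3.1, 1.81 and 1.36, 2.87-fold. HSP90B1 (GRP94) read 6.28, 5.35 and 4.10, against 5.58 on CTR. HYOU1, an ER relative of HSP70, had 1 probe 2.53-fold higher and another with a difference of -0.34, and CRELD2 was dim on HS_24h with at least 2.77-fold. The disulphide enzymes PDIA3 (1.05) and PDIA4 (0.93) and the lectin chaperones CALR (0.58 to 1.06 over 6 probes) and CANX had smaller differences. XBP1, the transcription factor of the IRE1 branch of the unfolded protein response, read 4.71, 3.31 and 3.27. Its other 2 probes, with 5.40, 4.04 and 4.69 and with 1.73, 1.07 and 1.27, were lowest at 12 h. At 12 h XBP1 was thus within 0.04 of its 24 h level or below it, whereas every HSPA5 probe was lower at 24 h than at 12 h. DNAJC3 (0.29) and SDF2L1 (0.20) differed by less than a spot's error, and EDEM1, which sends misfolded ER proteins to degradation, was lower at 8 h with 0.49, 1.06 and 1.58. Of 22 listed genes, 18 were detected and 17 had a difference above 0, beside 4122 of all 6573 genes. The list median was 0.99, or 0.81 with dim values raised to their bound. It was 0.52 against HS_12h alone.

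The integrated stress response list, driven by ATF4 when translation is slowed, had a median of 0.51 over 10 of 14 genes with none 2-fold higher. ATF4 itself had differences of 0.26 to 0.97 over 3 probes, and read lower on HS_8h than on CTR with each of them (6.02 against 6.57 with the brightest). ATF3 read 3.14, 2.71 and 2.16, against 1.34 on CTR. ASNS, which makes asparagine, read 0.93 and 0.99 on HS_8h and HS_12h and was dim on HS_24h. HSF1 itself read 3.43, 3.39 and 3.51 with its brightest probe, against 3.44 on CTR. Its 2 other detected probes were dim on HS_8h. The ubiquitin gene UBB was lowest at 12 h, with 5.57, 4.42 and 5.08, and so did not follow the order of most genes of the chaperone lists.

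The order of the later arrays was shared by the called probes. Each of the 22 higher probes that were dim on none of the 3 arrays was higher on HS_12h than on HS_24h, 14 of them by 2-fold, whereas 37.8% of the 9864 probes were higher and 0.872% by 2-fold. Their median difference was 1.65 between HS_8h and HS_12h, 2.65 between HS_8h and HS_24h, and 1.07 between HS_12h and HS_24h. The error of the last difference is 0.41 for a probe with 1 spot. Over the 7 chaperone lists, 51 of 73 detected genes, or 69.9%, stood in the order 8 h above 12 h above 24 h, against 1997 of 6573 genes, or 30.4%. From probes well above background on all 3 arrays the counts were 45 of 66 (68.2%) and 1427 of 5532 (25.8%).

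On CTR all 22 were well above background and outside a dark area of that array, which held 2600 probes (5.96%) whose CTR values were not used. On HS_8h, 15 of the 22 were at least 2-fold above CTR, with a median of 1.61. On HS_12h the median was 0.11 and 3 probes, of HSPA1A and DNAJC21, were at least 2-fold above CTR, while 3 HSPA8 probes were at least 2-fold below it. On HS_24h the median was -1.42 and 13 of the 22 were at least 2-fold below CTR, among them HSPA8 and HSPA5 probes. Over the 9135 probes measured on all 4 arrays, the medians were -0.13, -0.27 and -0.14, and 350 were 2-fold below CTR on HS_24h. With 1 CTR and 1 HS_24h array, the condition and the array cannot be told apart.

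Genes outside the chaperone lists also met the rule on all 3 arrays. DNAJC21, a J-domain protein of ribosome assembly that was not on the DNAJ list, read 3.23, 1.81 and 0.70, against 0.64 on CTR, 3.94-fold. Its 1 other detected probe, dim on HS_24h, read 0.05 on HS_8h and -0.09 on HS_12h, so the probes of this gene disagreed. SNRPF, a core protein of the spliceosome, read 3.64, 2.47 and 1.5, 3.16-fold.

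ZFAND2A (AIRAP), a proteasome-associated gene that stress induces, had a pattern like HSPB8, with 4.74 and 2.75 on HS_8h and HS_12h and a dim HS_24h, at least 9.58-fold. It was picked out after its values were seen, as were HIST1H2AH (at least 3.12-fold) and IFI27 (at least 3.12-fold, its second probe 0.80). PRSS57 was dim on both later arrays and on CTR, with 1.33 on HS_8h and at least 3.34-fold. Of the other genes dim on both, SIDT2 gave at least 2.30-fold and STRN at least 1.93-fold. RGS2, a brake on G protein signalling, gave at least 1.87-fold with 1 probe and at least 1.21-fold with another. None of these bounds met the 3-fold rule.

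Genes 2-fold beyond each later array but short of 3-fold, a set looked at after the values were seen, included several of stress biology. HMOX1, which breaks down haem and is a target of NRF2, read 4.65, 3.47 and 3.23, against 2.98 on CTR, 2.48-fold. GADD45B, a stress-induced regulator of growth arrest, read 5.23, 4.17 and 3.74. KLHL21, a ubiquitin ligase adaptor, read 5.47, 4.35 and 4.37. BANP read 3.72, 2.53 and 1.99, and DEDD2 and RAB7B had 2.13-fold and 2.03-fold differences. In KLHL21, DEDD2 and RAB7B the later arrays lay within 0.07 of each other, inside the error of 0.41 for a probe with 1 spot. Some genes of the chaperone lists, such as HSPB6, also had close levels on the later arrays. The NRF2 and antioxidant list as a whole had a median of 0.24 over 12 of 19 genes, and HMOX1 was the 1 gene of it that was 2-fold beyond each later array. The thioredoxin reductase TXNRD1 (1.04) lay less than 2-fold above HS_12h.

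Genes lower at 8 h were few and mostly dim there. CCL2, the chemokine that draws monocytes, read 0.87, 1.89 and 3.16, against 3.15 on CTR. It was lowest on HS_8h, and its HS_24h level was close to that of CTR. The difference was -1.65, or 3.14-fold lower. Its second probe, dim on HS_8h, gave a bound of at least 1.55-fold lower. ANKRD1, a mechanical stress target of YAP, was named after its values were seen. It read 2.04, 3.54 and 3.72, against 3.34 on CTR, 3.01-fold lower, but its brightest probe read 5.90, 6.14 and 6.06 and the remaining one differed by -1.14. NAGK (2.20-fold) and WBP11 (2.13-fold) were lower by 2-fold from each later array. The other 15 called probes were dim on HS_8h, and none of them met the rule with HS_8h raised to its bound. Among probes with a gene symbol, the largest bounds were those of USP18 (at least 2.64-fold), PARP14 (at least 2.03-fold), C7H19orf6 (at least 1.97-fold), MAPRE3 (at least 1.68-fold) and PLAU (at least 1.61-fold). Of these, USP18 and PARP14 are interferon-induced genes. IFI27, also interferon-induced, went the other way and was called higher at 8 h, at least 3.12-fold. The second USP18 probe read 1.25, 1.31 and 1.43, so the probes of this gene disagreed.

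The interferon response list had the lowest median of all lists, -0.55 over 10 of 24 genes. The value rested on HS_24h: the median was 0.03 against HS_12h alone and -0.91 against HS_24h alone. OAS1Y, a sensor of double-stranded RNA, read 3.12, 3.54 and 5.45, against 4.82 on CTR. ISG15 read 3.21, 2.97 and 4.73 and MX1 1.14, 1.61 and 3.11 with 1 probe each, so HS_24h was the high array and the other 2 lay close together. IFI6 (0.70) and IFIT5 (0.14) were not lower at 8 h. No gene of the list was 2-fold lower than each of the later arrays as a gene, and 1 of its probes, of USP18, was called lower.

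**Figure D4:**
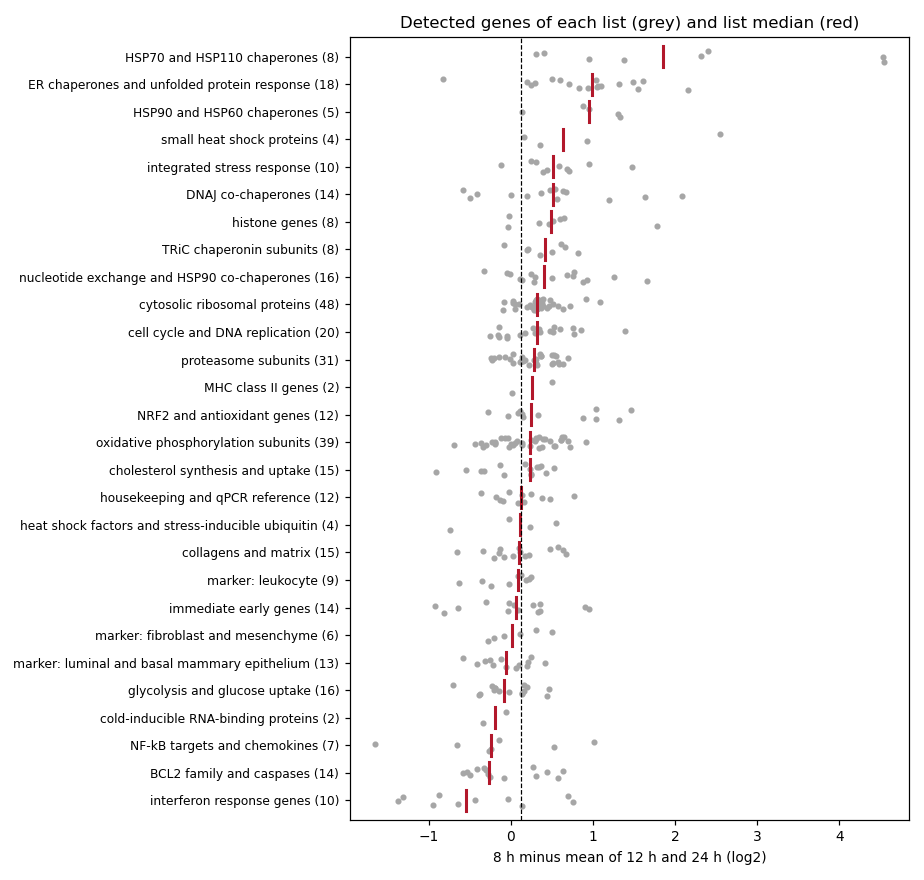
Difference of each detected gene (grey points, horizontal axis, log2 of HS_8h over the mean of HS_12h and HS_24h) and the median (red bar) in 28 lists of at least 2 detected genes, with the number of genes in brackets; the dashed line is the median of all genes, 0.12. The HSP70, ER and HSP90 lists lie farthest to the right and the interferon list farthest to the left.

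The other lists had medians within 0.39 of that of all genes. The cytosolic ribosomal proteins (48 genes) had a median of 0.32, proteasome subunits (31) 0.28, subunits of oxidative phosphorylation (39) 0.23, cholesterol synthesis genes (15) 0.23 and cell cycle genes (20) 0.32. None of these 5 lists had a gene 2-fold beyond each later array in either direction. The histone list had a median of 0.49 over 8 genes, with HIST2H2AC the one called, at 0.25 on HS_8h, -0.95 on HS_12h and dim on HS_24h, and with a bound of at least 1.54-fold. The error of 0.31 is that of a probe with 1 spot, and the error of a list median was not measured. With the main scaling, the median lay within 0.31 of 0 for the NF-kB and chemokine list (-0.24) and BCL2 family and caspases (-0.27). The same held for cold-inducible RNA-binding proteins (-0.20), glycolysis (-0.09), collagens (0.10) and the HSF and ubiquitin list (0.11). It also held for immediate early (0.06) and housekeeping genes (0.12) and the epithelial (-0.06), fibroblast (0.01) and leukocyte (0.09) markers. Each of these medians changed sign or reached 0 under another scaling of the arrays. Other medians, such as those of the proteasome, oxidative phosphorylation and cholesterol lists, also lay within 0.31 of 0 but stayed above 0 under every scaling. Relative to the median of all genes, the BCL2 (-0.39 to -0.13) and NF-kB lists (-0.36 to -0.13) lay below it under every scaling. So did the cold-inducible (-0.39 to -0.26) and glycolysis lists (-0.32 to -0.19) and the epithelial (-0.18 to -0.1) and fibroblast markers (-0.11 to -0.01). Within the BCL2 list 5 of 14 detected genes lay above 0, beside 4122 of all 6573 genes. None of the 14 was 2-fold beyond each later array. The MHC class II list had 2 of 14 genes detected, with a median of 0.26.

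Position on the array moved with the dim calls. Of the 92 higher probes dim on an array, 35 (38.0%) lay on the 2 outermost rows or columns, which hold 5.66% of all detected probes. None of those 35 met the rule as a bound. Of the 22 probes well above background on all 3 arrays, 1 lay there, the HSPA5 probe A_73_P038581, and HSPA5 probe A_73_102684, off the edge, gave 5.17-fold. No probe called lower lay on the edge. Without the edge, 78 probes were higher and 17 lower. The part of the array edge in the dim calls was not tested further.

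**Figure D5:**
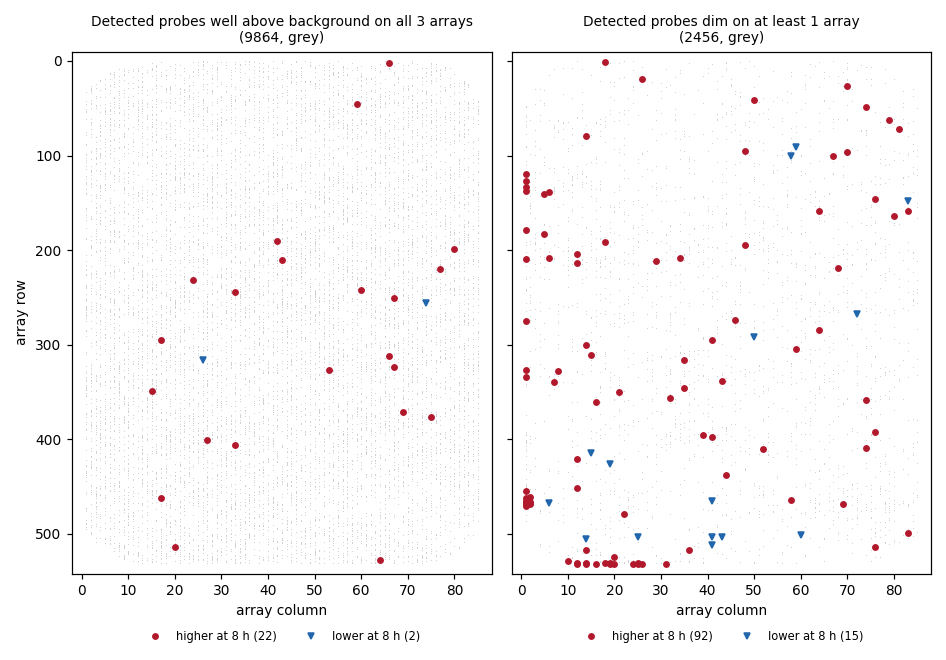
Positions of called probes on the array (horizontal axis column, vertical axis row, counted from 1), with probes well above background on all 3 arrays on the left and probes dim on an array on the right; grey dots are all detected probes of each kind. The 22 higher probes on the left are spread over the array, whereas 35 of the 92 on the right sit on the 2 outermost rows or columns.

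On HS_8h, 8 spots carried the scanner's outlier flag and were left out. Of these, 5 would have been called higher. They were spots for BOLA-DRA (6.99 on HS_8h and dim later) and WDR12 (6.65) in neighbouring rows of column 72, for KRIT1 (3.45) and OMA1 (2.86) close to each other in columns 12 and 14, and for a transcript without a symbol (6.08). BOLA-DRA encodes an MHC class II chain. Its 2 other probes and all 5 probes of CD74, the class II invariant chain, were dim on all 3 arrays, and the other probe of WDR12 had a difference of 0.26. These spots were named after their values were seen.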

How the data were processed

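Total RNA of each sample was labelled with Cy3 and hybridised to an Agilent 4x44K bovine array by the authors. The deposited scanner files hold the spot intensity from Feature Extraction 9.5.3.1, per the file headers (gProcessedSignal, background subtracted). The authors also deposited a log2 table, shifted to the 75th percentile in GeneSpring GX and centred on each probe's median over the 8 arrays, which served as an alternative. From the intensities, log2 values were taken, spots with an outlier flag left out (79 probes), spots of 1 probe averaged, and each array's 75th percentile over non-control probes subtracted. A gene's value is the median over its detected probes. With 1 array per condition no test was run, and the number of arrays limits the precision. Saturated spots were kept. Gene names are those of the array design (33375 of 43653 probes, 15661 symbols).

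Genes were named by a fixed rule: up to 15 rises and 15 falls called by the 3-fold rule on all 3 arrays, 1 probe per gene, that of the highest mean level; the 5 largest bounds each way; and any gene of the lists. Probes outside it are said to be chosen after their values were seen. Some genes that the rule takes are not reported here. The members and the 30 lists were chosen with earlier results of these data known. Alternatives were other scalings, quantile normalization, normexp background correction with offset 50 (limma 3.58.1, R 4.3.3), the deposited log2 values, other filters, cutoffs and references, and a local spatial correction; leaving out the array edge was added after seeing the data. The steps, in Python 3.11.15, were tested on simulated data.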

Additional observations from a re-analysis of the deposited data

How the results depend on the processing

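The 114 probes higher at 8 h became 20 with normexp, 22 with probes well above background on all 3 arrays, 35 with dim values raised to the lowest level well above background, 185 with no filter, 200 by 2-fold from the mean, 457 against HS_24h alone and 67 as distinct gene names. The 17 lower became 6 with median scaling, 26 with the 75th percentile of bright probes, 3 with normexp, 2 with probes bright on all 3 arrays or dim values raised, 148 with no filter, 47 by 2-fold, 3 against HS_12h alone and 61 against HS_24h alone. The share of calls that were higher, 87.0%, was 74.5% with the percentile of bright probes and 55.6% with no filter. Median scaling moved the median of all genes from 0.12 to 0.39 and the median 12 h minus 24 h difference of the called probes from 1.07 to 1.73. The HSP70 median of 1.85 was 1.34 with normexp, 1.36 with probes bright on all 3 arrays and 0.68 with no filter. The ER median of 0.99 was 0.55 with normexp and 0.52 against HS_12h alone. Without the filter the DNAJ and histone medians were 0.04 each and the interferon median -0.08, and with quantile normalization the ribosomal median was 0.01. Against HS_12h and HS_24h alone, respectively, the HSP90 median was 0.62 and 1.28, the small heat shock median 0.31 and 1.04, and the interferon median 0.03, a reversal, and -0.91. Of the 22 higher probes dim on none of the 3 arrays, 12 were still called with normexp, 14 with the percentile of bright probes, 14 with quantile normalization, 16 with the local spatial correction and 12 against HS_12h alone. Beside these, the other 407 values of counts and lists stayed within the error of a probe with 1 spot or within 1.5 times. So did 201 of 256 values of named genes. The causes were not tested. The deposited log2 values gave 116 higher and 17 lower probes, all 114 and 17 among them. Leaving out a replicate was not possible with 1 array per condition. No paired analysis was possible because the groups share only replicate number 1. A probe dim on an array gives only a bound, and HS_24h, with the fewest probes above background, limits most of them. Gene names are those of a cattle design, and a culture from 1 animal shows nothing of the spread between animals.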
